A study of Mus musculus with 20 samples.

Results

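The ribosome-bound mRNA of epiAT adipocytes was described in the 10 chow-only libraries of a series of 20 TRAP–seq libraries, without any contrast between groups. They were chosen by their labels alone, as the mice that never received HFD, and within each library genes were ranked by their share of the counts. Each library came from 1 mouse: 3 C mice aged 18 weeks, 3 CC_s mice aged 26 weeks, 2 CC_l mice aged 31 weeks and 2 CCC mice aged 39 weeks. C and CC_l mice had low-fat chow for 12 and 25 weeks. CC_s and CCC mice had the same first periods and were then switched to a different, standard chow for 8 weeks. The diet at collection thus differed between C and CC_s mice and between CC_l and CCC mice, together with age. All mice carried the AdipoERCre transgene, a tamoxifen-inducible Cre that the adiponectin gene's promoter drives, together with the NuTRAP reporter, on a background labelled C576BL6, and all received tamoxifen before the diets. The libraries of the shorter first period (C, CC_s) and of the longer one (CC_l, CCC) carried different prefixes in their sample codes. What the prefixes stand for is not given in the sources used here, and they cannot be told apart from the length of the first period.

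In translating ribosome affinity purification, adipocytes in which the Cre was active carry ribosomes with a GFP tag, nuclei are spun out of the lysate of the whole depot, and the tagged ribosomes are pulled down from the supernatant with the mRNA that they carry. White adipocytes store triglyceride in 1 large lipid droplet. They take up fatty acids that lipoprotein lipase frees from circulating particles, also make fatty acids from glucose, esterify both, release them again by lipolysis, and secrete hormones such as adiponectin, leptin, resistin and adipsin. Their marker genes (12 genes, among them Adipoq, Plin1, Cidec and Lipe) were at 1 CPM (counts per 1000000 counts of the library) or more in all 10 libraries. So were all listed markers of macrophages, endothelium, progenitors and mesothelium, so this level alone does not mark adipocytes. Of the 12, 8 ranked among the 100 genes with the highest median CPM, and 5 were in the top 100 of every library. In each library the 12 summed to 2.32 to 15.1 times the sum of 103 markers of other cell types. No RNA of the whole depot before the pulldown was analysed here, so levels are given and enrichment is not.

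The depth was 14903301 to 30146952 counts on genes, and a count of 3 stood at 0.0995 to 0.201 CPM. Of the counts between 1 and 10, 91.0% to 95.6% were even, so that most counts rose in steps of 2 and fewer fragments than counts may lie behind each value. C replicates 1 and 2 and CCC replicate 2 stood apart from the other 7 libraries. RNAs that stay in the nucleus (Malat1, Neat1, Meg3, Kcnq1ot1 and Miat) took 3.24% to 4.36% of their counts and 0.343% to 0.965% in the other 7. Genes of the mitochondrial genome took a median of 3.69% of the counts, with a range of 1.32% to 23.0%. The 3 highest shares were those of C replicates 1 and 2 and, at 11.9%, CC_s replicate 1, and CCC replicate 2 followed. Gene models of 5 kb of exon or more held 42.6% to 46.1% of the nuclear protein-coding counts in the 3 libraries and 28.4% to 32.2% in the other 7. Over the 8481 genes with a median of 10 CPM or more, Spearman's rho between libraries was 0.78 to 0.98 within the 7, 0.85 to 0.95 within the 3 and 0.57 to 0.80 across them, as a description over genes of libraries that differ in depth and RNA make-up. The main results are therefore also given without these 3 libraries. Of the 200 genes of highest median CPM, 8 had a median that moved by over 1.5 times without them. It fell for mt-Rnr2 (31827 to 15331 CPM), Hp (2150 to 1366 CPM), mt-Co1 (1203 to 761 CPM) and Tmsb4x (1072 to 593 CPM), and it rose for Thrsp (5719 to 8931 CPM), Lars2 (2367 to 4460 CPM), Atp5g3 (925 to 1389 CPM) and Rplp2 (706 to 1226 CPM). The median share of the mitochondrial genome was then 2.11%.

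The sequence around the start codon is shown for 8 of the most abundant adipocyte mRNAs, because that is where the pulled-down ribosomes begin to translate them. Each run holds 12 bases before the start codon, the start codon in capitals and the 6 bases after it, 5′ to 3′, from 1 GENCODE vM21 transcript per gene (mm10).
Fabp4: aaggtttacaaaATGtgtgat
Car3: cgaaaggtgaccATGgctaag
Scd1: ctgactatcatcATGccggcc
Cfd: cctgctgtcagaATGcacagc
Lpl: gtgcaccgggagATGgagagc
Retn: cgtacccacgggATGaagaac
Adipoq: aaagggctcaggATGctactg
Cidec: gtcggagaaacaATGgagtcc
These start codons lie at chr3:10208509-10208511 (minus strand, Fabp4), chr3:14863572-14863574 (plus, Car3), chr19:44407407-44407409 (minus, Scd1), chr10:79890926-79890928 (plus, Cfd), chr8:68880753-68880755 (plus, Lpl), chr8:3656016-3656018 (plus, Retn), chr16:23155225-23155227 (plus, Adipoq) and chr6:113434732-113434734 (minus, Cidec), each within an exon. All 8 carry an A or G at the third base before the ATG, the position known to weigh most in start codon recognition, and 3 of them (Car3, Lpl and Cidec) also carry a G right after it. Among the 23 nuclear protein-coding genes that were in the top 100 of every library, 23 had an A or G at the third base before the ATG, beside 7158 of 8171 (87.6%) with a median of 10 CPM or more and 17168 of 20354 (84.3%) in the annotation. Both features together were found in 12 of the 23 (52.2%), beside 46.8% of the genes at 10 CPM or more. Their coding sequences were short, with a median of 259 codons beside 442. These shares describe the annotation, and no test was run on them.

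The counts were concentrated on few genes. The most abundant gene of a library held 3.69% to 12.2% of its counts, the first 10 held 15.4% to 29.6% (median 19.7%) and the first 100 held 30.7% to 43.7% (median 35.2%). Between 254 and 560 genes (median 399.5) sufficed for 50% of the counts. Without the 3 libraries, the median was 33.7% on the first 100 genes and 406 genes for 50%. At the other end, 11372 genes were at 1 CPM or more in all 10 libraries, 6498 at 10 CPM, 641 at 100 CPM and 17 at 1000 CPM. The first place was held by Fabp4 in 5 libraries, by mt-Rnr2 in 4 and by Car3 in 1.

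Across the 10 mice, 221 genes entered the top 100 of at least 1 library and 26 were in the top 100 of every library. These 26 were Fabp4, mt-Rnr2, Car3, Scd1, Dbi, Cfd, CT010467.1, Lpl, Malat1, Retn, Thrsp, Gsn, Cidec, Actb, Adipoq, Plin4, Cdo1, Mgll, Lgals1, Cd36, Apoe, Cav1, Mgst1, Slc1a5, Cst3 and Chpt1. Only 4 (Fabp4, mt-Rnr2, Car3 and Scd1) were in the top 10 of every library, 6 in the top 20 and 17 in the top 50. Without the 3 libraries, 47 genes were in the top 100 of all 7, 7 of them subunits of the respiratory chain that are encoded in the nucleus, of which none was among the 26. In the plot of the coding genes among the 26, open points mark these 3 libraries. They were the 3 lowest of 10 for 9 of the 26 (Fabp4, Dbi, Retn, Cidec, Actb, Cdo1, Mgll, Lgals1 and Cst3), beside 20.1% of the 8481 genes with a median of 10 CPM or more. They were the 3 highest for 4 (mt-Rnr2, Gsn, Slc1a5 and Malat1, whose counts served to set them apart), beside 20% (1699) of the 8481 genes.

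**Figure D1:**
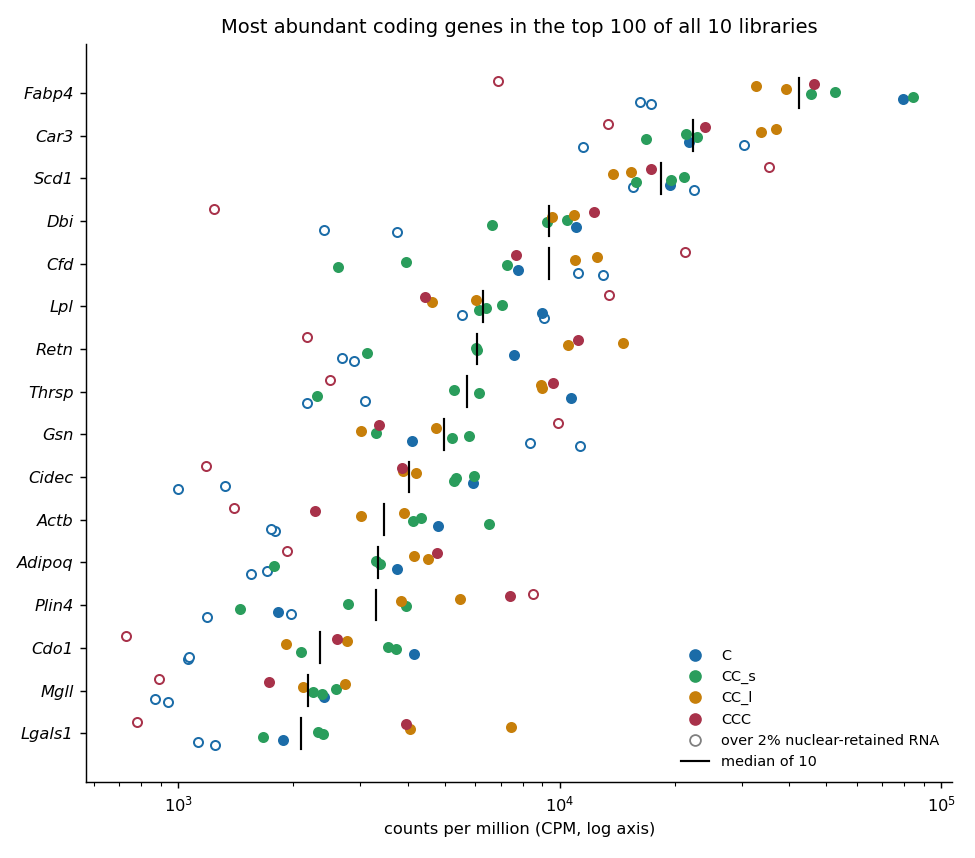
CPM (log axis) of the 16 coding genes of highest median among the 26 in the top 100 of all libraries, 1 point per mouse, coloured by group, open for the 3 libraries with over 2% of counts on nuclear-retained RNA, with a line at the median of 10. Fabp4 spans 6909 to 84287 CPM and Scd1 13815 to 35336 CPM.

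Genes of fatty acid uptake and binding held the largest median share of counts of any function list, at 5.57% over 11 genes (2.86% to 10.1%). The list summed to a median of 55696 CPM, most of it on Fabp4 except in CCC replicate 2. The mitochondrially encoded list held more in C replicates 1 and 2, CC_s replicate 1 and CCC replicate 2. The nuclear-encoded respiratory chain held more in CC_l replicate 2. The list of genes that handle oxidants and xenobiotics held more in C replicate 2 and CC_l replicate 2, and that of lipogenesis in CCC replicate 2. Fabp4, which binds fatty acids in the cytosol of adipocytes, had a median of 42351 CPM, with 6909 CPM in the lowest mouse (CCC replicate 2) and 84287 CPM in the highest. The 3 lowest values were those of the 3 libraries rich in nuclear RNA, and over the other 7 mice the median was 46503 CPM and the lowest value 32787 CPM. Lpl, the lipase that frees fatty acids from lipoproteins, had a median of 6279 CPM (4445 to 13494) and kept a rank of 5 to 14. Cd36, which carries fatty acids across the membrane, was among the steadiest abundant genes, with a median of 2082 CPM (1772 to 3537). Cav1, the coat protein of caveolae, small pits of the membrane, had 1926 CPM (1133 to 2770), and its partners Cavin1, Cav2 and Cavin2 had 1366, 813 and 547 CPM. The second fatty acid-binding protein, Fabp5, had 93.0 CPM, and the transporters Slc27a1 and Slc27a4 had 124 and 20.9 CPM, far below Cd36. All 11 genes were at 1 CPM or more in every library.

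Genes that make fatty acids held 2.99% of the counts (2.08% to 4.41%), most of it on Scd1 and Thrsp. Scd1, the desaturase that turns stearate into oleate, had a median of 18398 CPM, a lowest value of 13815 and a highest of 35336 CPM (CCC replicate 2), and ranked between 2 and 6 in every library. Thrsp, a protein that promotes lipogenesis, had 5719 CPM (2181 to 10719). The enzymes of the chain itself were lower and differed more between mice. Fasn, the fatty acid synthase, had 1903 CPM (388 to 2780), Acly, which supplies cytosolic acetyl-CoA, 629 CPM (128 to 1643), Acaca 433 CPM (172 to 855), and Me1, which supplies NADPH, 1044 CPM (213 to 2640.3). For Fasn and Acly the spread was as wide without the 3 libraries (SD of log2 CPM 0.98 and 1.18, beside 1.07 and 1.06 with them), which was not so for Scd1 (0.22 beside 0.39). Within the 7, the spread of Fasn rested on CC_s replicate 1, at 388 CPM beside 1769 to 2780 CPM in the rest. Acly was also lowest there, at 128 CPM beside 323 to 1643 CPM. Scd2 and Elovl6, a further desaturase and an elongase, stood at 192 and 90.1 CPM. The transcription factors Srebf1 and Mlxipl, which drive this pathway, stood at 343 and 79.98 CPM.

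Genes that build and coat the lipid droplet held 1.13% of the counts (0.341% to 1.52%). Cidec, which drives droplets to fuse, had 4038 CPM (997 to 5945). Without the 3 libraries its lowest value was 3853 CPM. Plin4 had 3306 CPM (1187 to 8496) and G0s2, an inhibitor of the lipase ATGL, 1167 CPM (567 to 2628). Plin1, the perilipin that guards the droplet, was far lower, at 326 CPM (145 to 479), and Plin2 stood at 339 CPM. For triglyceride synthesis the sum was 0.385% of the counts, led by Lpin1 (854 CPM) and Dgat2 (851 CPM), whereas Dgat1 had 167 CPM and Gpam 20.4 CPM. Lipolysis genes held 0.534%. They were led by Mgll, the monoglyceride lipase, at 2191 CPM (866 to 2733) and by Lipe, the hormone-sensitive lipase, at 1055 CPM (356 to 1702), with Pnpla2 (ATGL) at 570 CPM (89.8 to 1558). Adrb3, the adrenergic receptor that triggers lipolysis in adipocytes, had 323 CPM (154 to 828).

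Hormones and other secreted proteins of adipocytes held 2.13% of the counts (0.998% to 3.61%). Cfd (adipsin), a complement protease, had 9357 CPM (2629 to 21305), Retn (resistin) 6068 CPM (2170 to 14683) and Adipoq (adiponectin) 3333 CPM (1550 to 4771). Of these, the spread of Cfd was the least changed by leaving out the 3 libraries, with an SD of log2 CPM of 0.88 over 10 mice and 0.80 over 7. Lep (leptin) had 1682 CPM (479 to 2093) and was steady over the 7 mice, at 1395 to 2093 CPM. Rbp4 had 1306 CPM (415 to 3300), whereas Angptl4, Nampt and Agt had 136, 151 and 71.6 CPM, and Apln and Adm 10.7 and 9.73 CPM. In the list of acute phase and complement genes, in which Apoe was counted, Hp (haptoglobin) had 2150 CPM (634 to 3666) and Apoe 1965 CPM (959 to 3719). C3, Lcn2 and Saa3 of this list stood at 220, 6.74 and 10.7 CPM.

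The list of genes that handle oxidants and xenobiotics, in which Car3 was counted, held 3.61% of the counts (1.63% to 5.14%). Most of this was Car3, a carbonic anhydrase that is abundant in fat and muscle, with 22334 CPM (11503 to 36871). Gpx1, a glutathione peroxidase, had 3273 CPM (582 to 4555) and Cyp2e1 1801 CPM (547 to 6452). Gpx4 ranged from 71.2 to 2596 CPM around a median of 1219, and its lowest value without the 3 libraries was 1007 CPM. For Gpx4, 34.7% of the 50-base words of its transcripts also occur in another annotated gene. Further genes of every library's top 100 were Dbi, which binds acyl-CoA (9396 CPM, 1242 to 12309), Gsn, which severs actin filaments (4975 CPM, 3017 to 11301), Cdo1, the dioxygenase of cysteine (2348 CPM, 728 to 4159), and Lgals1, a galectin (2102 CPM, 781 to 7446). Slc1a5, a transporter of glutamine, had 1352 CPM (793 to 6207), and its highest value without the 3 libraries was 1482 CPM.

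The transcription factors that set adipocyte identity together held 0.152% of the counts, and none of the 7 entered the 100 genes of highest median. Cebpa had 345 CPM (46.9 to 592), Ebf1 302 CPM (139 to 330) and Pparg 278 CPM (175 to 460), and all 7 were at 1 CPM or more in every library. Insulin signalling and glucose entry held 0.2498%, with Trarg1, a partner of the insulin-sensitive glucose transporter, at 892 CPM (131 to 1446) and the transporter Slc2a4 itself (GLUT4) at 138 CPM (86.9 to 350). Insr had 67.6 CPM, Irs2 20.2 CPM and Irs1 6.95 CPM. Slc2a1 (GLUT1), the transporter that does not depend on insulin, had 6.29 CPM. The genes of heat-producing fat were low by count, and 5 of 7 had a median of 1 CPM or more. Ucp1, the uncoupling protein, was at 0 counts in 6 libraries and at 0.584 CPM or below in the others. Dio2 had 1.37 CPM, Ppargc1a 9.84 CPM and Cidea 6.93 CPM, and only Cox8b and Cox7a1 of the 7 passed 10 CPM, at 27.95 and 17.4 CPM. These 2 genes are short, with a median exon length of 447.5 bp, and a count favours a long mRNA.

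**Figure D2:**
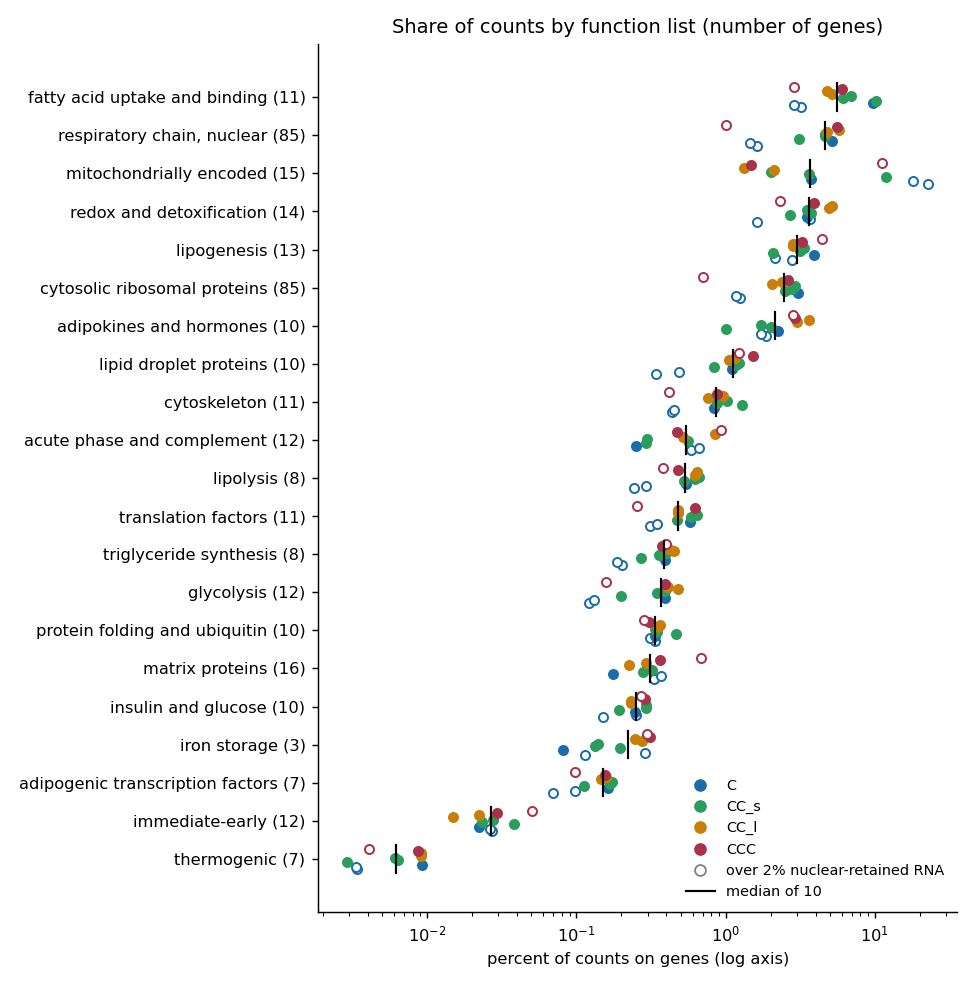
Percent of counts (log axis) on each function list, 1 point per mouse, coloured by group, open for the 3 libraries rich in nuclear RNA, with a line at the median of 10 and the number of genes in brackets. The lists of fatty acid uptake and of the nuclear-encoded respiratory chain lead at medians of 5.57% and 4.60%.

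A count favours a long mRNA, so levels were compared between genes per kb of exon and scaled to the same total in each library (TPM). By median TPM the order was mt-Rnr2 (49945 TPM), Cfd (24250), Fabp4 (22383), Car3 (19353), Dbi (15788), Retn (9468) and Scd1 (9141), followed by CT010467.1, Uqcr11, Ndufa2, Thrsp, Selenow, Adipoq, Lgals1, Uqcr10, Gpx1, Ifi27l2a, Cox8a, Cidec and mt-Cytb. Of the top 100 by CPM, 63 were also in the top 100 by TPM. The median exon length was 2516.5 bp in the first list and 1091 bp in the second. Lpl fell from place 8 by CPM to place 68 by TPM, whereas Uqcr11, a subunit of complex III with 641 bp of exon, rose to place 9. These lengths are unions of all annotated exons, which for Lpl (10478 bp) exceeds its longest transcript (4115 bp), so that its place by TPM depends on the length taken. With the longest transcript as length, the 2 lists shared 67 genes.

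Per length, the respiratory chain came to the fore, with a median summed TPM of 96094 beside 28461 for fatty acid uptake and binding. The 85 nuclear-encoded subunits held 4.60% of the counts (1.01% to 5.73%), 16 of them were in the top 100 by CPM and 23 in the top 100 by TPM, and 80 of 85 were at 1 CPM or more in every library. Uqcr11 had 7175 TPM, Ndufa2 7042, Uqcr10 5486, Cox8a 5222, Cox6a1 4633 and Cox6b1 4591 TPM. Complex I (36 genes) held 1.64% of the counts, complex IV (18 genes) 1.04%, ATP synthase (17 genes) 0.932%, complex III (9 genes) 0.757% and complex II (4 genes) 0.139%. In the 3 libraries rich in nuclear RNA, each of these 5 was lower than in any of the other 7. Complex III, for example, reached 0.214% at most in the 3, and 0.520% to 0.930% in the 7. Single genes with their 3 lowest values in these libraries were common (20.1%, above). The median over the 3 libraries was lower than over the other 7 for 89.9% of the 158 genes with under 1 kb of exon and for 81.1% of the 811 genes with 1 to 2 kb, beside 33.8% of the 3875 genes with 5 kb or more. The part of gene length in the levels of the complexes was not tested.

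The 85 cytosolic ribosomal protein genes held 2.45% of the counts (0.703% to 3.07%), of which 1 gene, Rpl41, entered the top 100 by CPM and 8 the top 100 by TPM. By TPM the highest were Rplp1 (3228 TPM), Rpl41 (2384) and Rps15 (1718). In a median ribosomal protein gene, 23.7% of the 50-base words of its transcripts also occur in a transcript of another gene, and in 7 genes more than 50% do, so their levels are uncertain. Of 11 translation factors, Eif4g2 (1048 CPM, 501 to 1497) and Eif4a2 (871 CPM) led by count and Eef1a1 by TPM (660 TPM). Heat-shock proteins, disulphide isomerases and ubiquitin held 0.336% (0.284% to 0.462%), with an SD of the log2 summed CPM of 0.19, the smallest of any function list over 10 mice. Over the other 7 it was 0.183, and that of lipolysis was 0.178. This steadiness was of the sum only. The single 10 genes of the folding and ubiquitin list had a median SD of 0.65 over 10 mice, beside 0.54 over all genes at 10 CPM or more. Of the matrix genes only Sparc was abundant, at 1370 CPM (871 to 1866), beside 162 CPM for Col4a1 and 56.5 CPM for Col1a1. The cytoskeleton was led by Actb (3459 CPM, 1396 to 6544) and Tmsb4x (1072 CPM). Ferritin heavy chain Fth1 and light chain Ftl1 had 1048 and 930 CPM, although 58.4% of the words of Ftl1 occur elsewhere. Glycolysis held 0.369%, led by Aldoa (946 CPM) and Ldha (899 CPM). Gapdh, often taken as a housekeeping gene, had only 3.97 CPM (1.05 to 13.2). In Gapdh, 25.1% of the words are shared with other annotated genes, and beside Aldoa (6.43%) and Ldha (9.26%) this share was higher in Pgk1 (53.9%, 46.3 CPM) and Pgam1 (36.2%, 9.06 CPM), which also were low. Other glycolytic genes did not follow this order. Eno1 (26.0%, 189 CPM) and Pkm (25.8%, 203 CPM) had shares close to that of Gapdh, and Pfkl (0.0298%, 46.7 CPM) shared almost none. The words of a gene come from all its annotated transcripts, so equal shares need not mean equal sharing of its most abundant mRNA. Whether shared sequence set any of these levels was not tested.

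Levels were also very unequal among the 15 mitochondrially encoded genes, which are transcribed and translated inside mitochondria and not by the tagged ribosomes. mt-Rnr2, the large mitochondrial ribosomal RNA, had a median of 31827 CPM (9383 to 122058; 15331 CPM without the 3 libraries) and most of the list's counts. mt-Cytb had 2232 CPM (663 to 43818), mt-Co1 1203 CPM (498 to 17745), mt-Nd1 1060 CPM (514 to 9673), mt-Rnr1 1030 CPM (301 to 11508) and mt-Nd4 566 CPM (286 to 10145). mt-Co2, mt-Atp6 and mt-Co3, which lie between mt-Co1 and mt-Nd4 on the same genome, had 9.59, 9.10 and 5.61 CPM, and mt-Nd3 and mt-Nd4l 0.302 and 0.185 CPM. The 5 low genes named last were those with over 90% of their 50-base words in another annotated gene. The other 10 ranged from 0% to 62.2%, and of these only mt-Atp8 was low (1.49 CPM, with 0% of its words shared). Outside this list, genes with many shared words were not always low, as Hba-a2 (89.3%, 211 CPM), Rpl36 (81.1%, 199.7 CPM) and Rps3a1 (71.0%, 397 CPM) show. Whether the handling of reads with several matches set any of these levels was not tested.

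**Figure D3:**
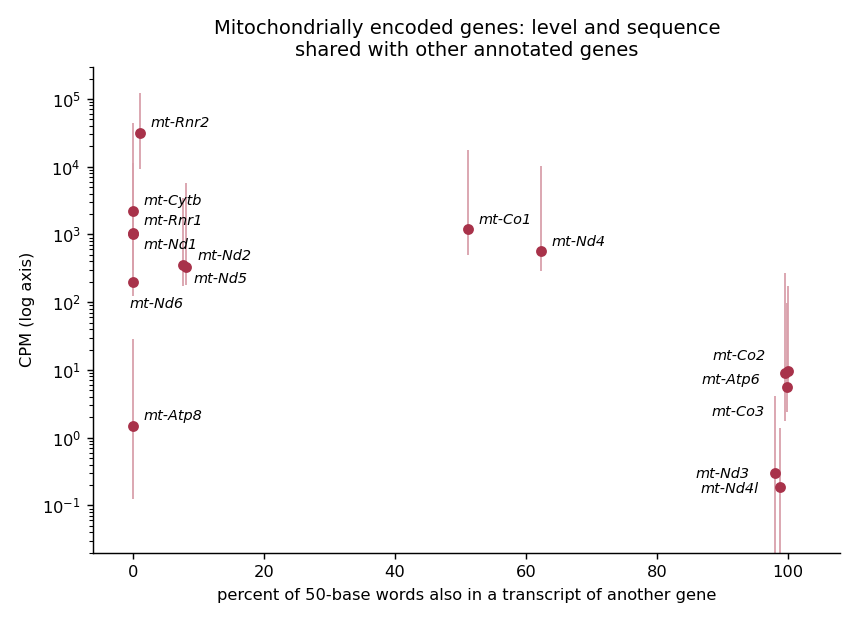
Median CPM (points, log axis) of the 15 mitochondrially encoded genes with the lowest and highest of 10 mice (lines), against the percent of their 50-base words that occur in a transcript of another gene. Lines that reach the lower edge (mt-Nd3, mt-Nd4l) include libraries at 0, and the 5 genes over 90% lie at 9.59 CPM or below.

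Among the most abundant entries were RNAs that no cytosolic ribosome translates. Malat1 had 6118 CPM (2465 to 33563) and Neat1 1281 CPM (383 to 9392), both long noncoding RNAs of the nucleus. CT010467.1 on chromosome 17, annotated as ribosomal RNA, had 8832 CPM (1098 to 30465) and shares 73.9% of its exon bases with the models AY036118 and Gm42418. AY036118 was at 0 counts in all 10 libraries, and Gm42418 had 43.7 CPM. Lars2, the gene of the mitochondrial leucyl-tRNA synthetase, had the widest spread of the 200 genes of highest median CPM. It had 36.7 CPM in its lowest and 13483 CPM in its highest library, around a median of 2367. Of its words, 0.196% occur in annotated transcripts of another gene. Lars2 and CT010467.1 were both lowest in C replicate 1 (36.7 and 1098 CPM). Both were highest in the 3 CC_s libraries (5051 to 13483 and 21600 to 30465 CPM). In between, their order differed in part, with 491 and 7334 CPM in C replicate 2 and 1217 and 3647 CPM in CCC replicate 1. Whether reads of ribosomal RNA were counted on Lars2 was not tested.

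The spread between mice was taken as the SD of log2(CPM + 0.5) over the 10 mice. Its median was 0.54 over the 8481 genes at 10 CPM or more, and 0.80 over the 26 genes of every library's top 100. Counting noise, if every count were an independent molecule, would give a median of 0.053 and 0.005. Without the 3 libraries the same medians were 0.37 and 0.45, and for the 47 genes in the top 100 of all 7 the median was 0.38. Over all 10 mice the genes of every library's top 100 thus spread more widely than the expressed genes as a whole, and without the 3 libraries little of this margin was left for the genes chosen in the 7.

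Among the 200 genes of highest median CPM, the steadiest were Reep5 (SD 0.21, 443 to 735 CPM), Celf2 (0.24), Nedd4 (0.25), Chpt1 (0.26, 774 to 1309 CPM), St13 (0.26), Cd36 (0.29), Nfib (0.32), Itm2b (0.37), Tns1 (0.37) and Adipor2 (0.37). Reep5 shapes the endoplasmic reticulum, Celf2 regulates splicing, Nedd4 is a ubiquitin ligase, Chpt1 makes phosphatidylcholine, Nfib is a transcription factor and Adipor2 is a receptor for adiponectin. The highest and the lowest mouse differed by 1.52-fold for Nedd4 and by 2.00-fold for Cd36. The least steady were Lars2 (SD 2.52, a 368-fold range), mt-Cytb (2.11), mt-Co1 (1.98), Gpx4 (1.78), mt-Nd4 (1.77), mt-Rnr1 (1.71), Neat1 (1.63), mt-Nd1 (1.63), Cox8a (1.56) and CT010467.1 (1.52). Of these 10, 5 are mitochondrially encoded, 2 more are noncoding and Cox8a is one of the short genes of the respiratory chain.

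Over the 7 other mice the order changed. Ndufa3 and Ndufb3, both subunits of complex I, were then among the steadiest (SD 0.10 and 0.15, beside 1.15 and 1.03 over 10 mice), together with Reep5 (0.12), Cd36 (0.16) and Ndufab1 (0.16). Lars2 (1.46), mt-Cytb (1.36), mt-Co1 (1.29), CT010467.1 (1.18) and Cox8a (1.05) remained among the least steady, and Acly (1.18), the enzyme that supplies acetyl-CoA for lipogenesis, joined them. In the plot of both SDs, the respiratory chain genes lie far under the line of equal spread, and Acly is one of the few genes above it.

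**Figure D4:**
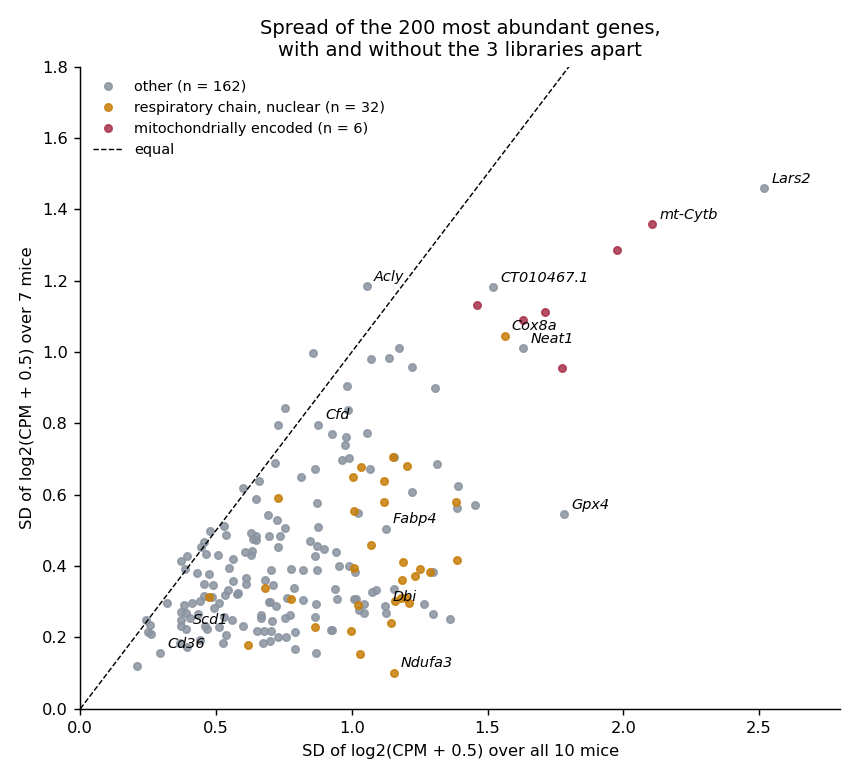
SD of log2(CPM + 0.5) over the 7 other mice against the SD over all 10 mice for the 200 genes of highest median CPM, 1 point per gene, with the line of equal SD. Lars2 lies at 2.52 and 1.46, Ndufa3 at 1.15 and 0.10.

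By function, the lists with the lowest median SD over 10 mice were the adipogenic transcription factors (0.45 over 7 genes), the translation factors (0.54 over 11) and fatty acid uptake (0.56 over 11), beside 0.54 over all genes at 10 CPM or more. The mitochondrially encoded genes (1.71 over 9) and the nuclear respiratory chain (1.00 over 80) had the highest among function lists of 5 or more such genes. Over the 7 mice, the respiratory chain came to 0.42 and the ribosomal proteins to 0.35 (0.75 over 10), beside 0.37 over all, whereas hormones stayed at 0.70 (0.76 over 10) and lipogenesis at 0.59 (0.85 over 10). With 10 mice of 4 ages, on low-fat or on standard chow when collected, this spread includes differences with age and with the chow.

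A number of genes entered the top 20 of exactly 1 library. They were Hp, Cd36, Apoe, Cav1, Fasn, Selenow, Ndufa2, Cavin1, Rbp4, Ifi27l2a, Pnpla3, mt-Nd2 and mt-Nd6, 13 genes in all. Ifi27l2a, an interferon-inducible gene, ranged from 363 to 4679 CPM around a median of 988. Pnpla3, a lipid hydrolase that carbohydrate feeding induces, ranged from 118 to 2513 CPM around 408, with an SD of 1.39 over 10 mice and 0.75 over 7. Cd36 and Cav1 by contrast never ranked below places 38 and 45.

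RNA of other cell types was present at low levels in all libraries. The 12 adipocyte markers summed to a median of 31684 CPM (18676 to 46638), and 103 markers of 12 other cell types to 4830 CPM (2826 to 9236), so that the adipocyte sum was 2.32 to 15.1 times the other sum (median 6.21). The 3 highest other sums were those of C replicate 1, CCC replicate 2 and CC_l replicate 1. Without the 3 libraries rich in nuclear RNA, the other sum had a median of 3366 CPM and a highest value of 8023 CPM (CC_l replicate 1). None of the 103 markers was among the 100 genes of highest median CPM. The source of this RNA was not tested, and in these bulk samples fewer cells of a type and less RNA per cell cannot be told apart.

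Haemoglobin transcripts of red blood cells had the highest median sum of any other cell type list, at 1173 CPM (671 to 1642). They included the highest-ranked of the 103 markers. As a share of the other cell type sum of each library, their median was 21.6% and that of progenitor markers 23.9%. Hbb-bs had 607 CPM (336 to 905) and place 150 by median, Hba-a1 334 CPM (172 to 492) and Hba-a2 211 CPM (107 to 301), while Alas2, the haem enzyme of red cell precursors, had 2.70 CPM. The alpha and beta genes each share over 50% of their words with another annotated gene, so the split between copies is uncertain. Their sum varied little, with an SD of log2 CPM of 0.43, and it was 1015 to 1642 CPM in the 3 libraries and 671 to 1637 CPM in the other 7.

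Progenitor and fibroblast markers summed to 949 CPM (656 to 3962), most of it on Dcn (485 CPM, 338 to 1969) and the collagens Col3a1 (203 CPM) and Col1a2 (175 CPM), whereas Pdgfra and Pi16, which define progenitors more closely, had 14.5 and 14.7 CPM. Endothelial markers summed to 512 CPM (286 to 1526), with Gpihbp1 at 88.2, Pecam1 at 64.2 and Cldn5 at 56.2 CPM and the highest value in CC_s replicate 1. Macrophage markers summed to 397 CPM (193 to 1238), with Lyz2 at 121 CPM and Adgre1 at 7.99 CPM, and the highest values were in the 2 CCC libraries. Markers of pericytes and smooth muscle summed to 352 CPM (187 to 1881), with Rgs5 at 97.7 and Acta2 at 90.6 CPM. Myh11, the smooth muscle myosin, had a median of 23.8 CPM and 819 CPM in its highest library. All 12 macrophage, 12 endothelial, 10 progenitor and 8 mesothelial markers were at 1 CPM or more in every library. The mesothelial sum was 98.1 CPM (42.0 to 605). The 3 libraries rich in nuclear RNA held the 3 highest progenitor sums (2106 to 3962 CPM, beside 656 to 2049.9 CPM in the other 7) and the 3 highest mesothelial sums (211 to 605 CPM, beside 42.0 to 123 CPM). They held the 3 lowest sums of skeletal muscle markers (11.7 to 34.3 CPM, beside 43.5 to 109 CPM).

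The listed markers of lymphocytes (24.9 CPM, 13.2 to 139), of granulocytes and mast cells (14.9 CPM, 9.89 to 50.9) and of skeletal muscle (56.4 CPM, 11.7 to 109) had low sums. The lymphocyte list did not hold Ighm, the heavy chain of immunoglobulin M of B cells. Its median was 567 CPM, far above the sum of that list, with 0% of its words shared. The low sum thus describes the listed markers and not all lymphocyte RNA. Cd3e had 0.4657 CPM, and Myh4, Ckm and Tnnc2 of skeletal muscle were at 0 in 9, 7 and 7 libraries, so that nearly all of the muscle sum was Acta1 (54.4 CPM). The Schwann cell sum was 42.2 CPM (33.8 to 54.3), carried by Mbp (30.4 CPM), with the defining marker Sox10 at 0.218 CPM.

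Single libraries had high sums of genes known from the testis and the epididymis, the organs next to this depot. In CC_l replicate 1, 12 spermatid genes summed to 4466 CPM, or 55.7% of its other cell type sum, beside a median of 10.8 CPM over the 10 libraries. Prm2 reached 1161 CPM, Tnp2 820 CPM and Prm1 712 CPM there, the first being a protamine that packs sperm DNA, and in C replicate 1 the list summed to 194 CPM. In C replicate 1, 9 genes of the epididymal epithelium summed to 1953 CPM beside a median of 10.3 CPM, and 1788 CPM of this was Crisp1, a secreted protein of the epididymis whose median was 0.945 CPM. Without both lists, the adipocyte sum was 3.02 to 15.2 times the other sum, with a median of 7.98.

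**Figure D5:**
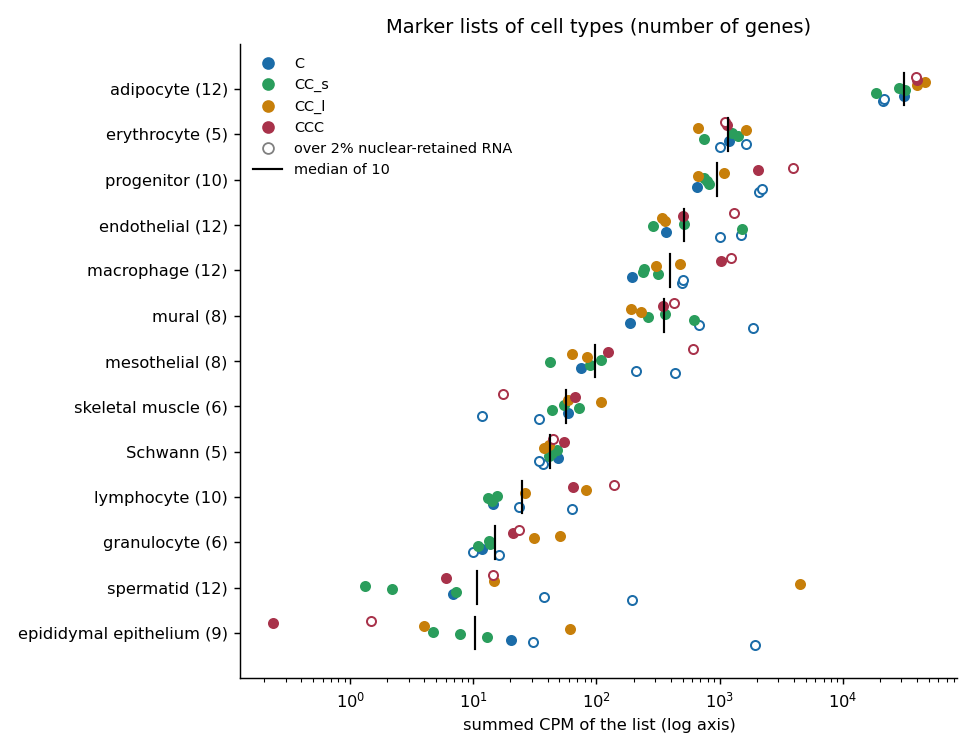
Summed CPM (log axis) of the marker lists of 13 cell types, 1 point per mouse, coloured by group, open for the 3 libraries rich in nuclear RNA, with a line at the median of 10 and the number of genes in brackets. Adipocyte markers lie at 18676 to 46638 CPM, and CC_l replicate 1 stands out at 4466 CPM for spermatid genes.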

How the data were processed

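Trimmed reads were aligned to mm10 with HISAT2 2.2.1 and counted on genes with featureCounts (Subread 2.0.1) by the authors, who deposited raw counts, whole numbers without normalization, for 46078 genes in 20 libraries. Reads had been made from full-length cDNA primed with oligo-dT. The annotation, strand setting and treatment of read pairs and of reads with several matches are not given in the sources used here. Of the genes, 45229 (98.2%) matched GENCODE vM21, which gave symbols, lengths and sequences. A further 10307 genes of vM21 were not analysed here. From the deposited counts of the 10 chow-only libraries, CPM (on the library total), TPM (per kb of the union of exons) and the SD of log2(CPM + 0.5) were computed with python 3.11.15 and pandas 2.3.3, and TMM and RLE library sizes for the alternatives with edgeR 4.0.16. No groups were contrasted, and the only test was Dixon's for a stray highest or lowest library. The functions were checked on drawn counts with known answers. Depth was 14903301 to 30146952 counts, and counting error, which treats each count as independent, is a lower limit of the technical error.

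Named genes were the 20 of highest median CPM, the 20 of highest median TPM, the 10 with the lowest and the 10 with the highest SD among the 200 of highest median CPM, genes in the top 20 of exactly 1 library, the 3 members of highest median TPM in each list and those at 0 in all libraries, and cell type markers in the top 500 of any library. Other list members were named after their values were seen. The genes, lists and rules were chosen with earlier results of these data known. The libraries with over 2% of counts on nuclear-retained RNA were set apart after the data had been seen.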

Additional observations from a re-analysis of the deposited data

Results flagged for a closer look

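In all, 61 quantities (library measures, list sums and named genes) were examined over the 10 libraries for a highest or lowest value far from the other 9. By Dixon's test 2 stood out, which is no excess where chance alone gives about 1 in 20. The quantities overlap, since some genes are members of the lists, and the test can miss 3 libraries that stand apart together. The low number thus does not show that the libraries varied only by chance. The summed CPM of the protein folding and ubiquitin list was highest in CC_s replicate 1, at 4621 CPM, beside 2840 to 3631 CPM (median 3362 CPM) in the other 9, so that the gap to the next library was 0.495 of the whole range. Scd1, the stearoyl-CoA desaturase, was highest in CCC replicate 2, at 35336 CPM, beside 13815 to 22459 CPM (median 17318 CPM) in the other 9, with a gap of 0.483 of the range. CCC replicate 2 is one of the 3 libraries rich in nuclear RNA, and CC_s replicate 1 is not.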

How the results depend on the processing

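Results were recomputed under planned settings other than leaving out a library, which gave 33 values. Of these, 31 stayed within the SD between libraries or, where there was 1 value for all libraries, within 1.5 times the main value. The other 2 were by construction: 17 genes were in every library's top 50 and 59 in every library's top 200, beside 26 in the top 100. Without the 3 libraries rich in nuclear RNA, a choice made after the data had been seen, 47 genes were in every top 100, the median SD of log2 CPM of the genes then in every top 100 was 0.384 beside 0.801, and the other cell type sum fell from 4830 to 3366 CPM. Leaving out each library in turn gave 393 to 406 genes for 50% of the counts, 34.8% to 35.6% of counts on the first 100 genes, 26 to 34 genes in every top 100, 11382 to 11593 genes at 1 CPM or more in all libraries, a median SD of 0.70 to 0.84, 60 to 65 genes shared by the top 100 by CPM and by TPM, and sums of 31281 to 32087 CPM for adipocyte markers and 4236 to 5424 CPM for the others. The share of mitochondrially encoded genes was 3.69%, 3.64% to 3.73% with a library left out and 2.11% without the 3 libraries. Taken among protein-coding genes only, as a share of their counts, it was 0.593%. Without the gene models that overlap ribosomal RNA it was 0.576%. Both are far lower but are among the 31, because this share differed widely between libraries. TMM and RLE library sizes gave adipocyte sums of 33859 and 32602 CPM. Depth limits genes near 3 counts the most, and 14054 genes were at 3 counts or more in every library. No paired analysis was possible because no groups were contrasted and the results come from no test.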
